A study of Mus musculus with 20 samples.

Results

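Simple epithelial keratins, vimentin and the epithelial adhesion protein EpCAM were followed through every library of a transcriptome study of mouse DC2 cells. The members were taken by gene symbol: the type II keratins Krt7, Krt8, Krt80 and Krt5, the type I keratins Krt18, Krt19, Krt20 and Krt14, and Vim and Epcam, 10 of the 21509 protein-coding genes in each deposited table. DC2 is an immortalized line of principal cells, the main secretory and absorptive cells of the epididymal tubule, from the distal caput of the mouse. In the flow experiment, 6 libraries of cells held for 3 h under moving fluid at 1 dyn/cm2 (flow) stood against 6 libraries of cells kept without flow (static). In the siRNA experiment, 4 libraries of cells transfected with siRNA to Ift88, an intraflagellar transport gene that cilia need in order to form, stood against 4 transfected with a scrambled siRNA (control siRNA). According to the study's methods, all cells were kept in low serum beforehand so that cilia would grow, a mixture of siRNAs was used, and both siRNA groups were placed under flow, which the sample labels do not state. All groups are 1 cell line, and the labels do not say whether libraries with different numbers are separate cultures, so the p-values measure only the spread between these libraries. For flow replicate 6 the title, the sample description and the column header say flow, and the treatment label says static. The library was counted as flow.

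Keratin filaments are built from pairs of 1 type I and 1 type II keratin, and neither kind forms a stable filament alone. Keratin 8 with keratin 18 is the founding pair of simple, single-layered epithelia. Keratins 7, 19 and 20 are added in particular ducts and linings, and keratins 5 and 14 form the pair of basal cells. Vimentin, encoded by Vim, builds filaments from a single kind of chain, is the filament protein of mesenchymal cells, and appears in many epithelial cells once they grow in culture. EpCAM, encoded by Epcam, is an adhesion protein of the sides of epithelial cells and served in the study's tissue sections to outline the epithelium.

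The values are TPM, transcript abundances corrected for transcript length, so levels of different genes can be set side by side within a table. The 2 experiments were deposited as separate tables, and levels were therefore not tested between them. The study's methods give a mean depth per sample, but TPM keep no read totals, so the depth of each library is unknown. Between 15292 and 16682 genes were above 0 in a library. The siRNA label was borne out in the target: Ift88 was at 4.21, 4.08, 4.15 and 4.12 TPM in control siRNA replicates 1 to 4 and at 1.71, 1.27, 1.28 and 0.917 TPM in the Ift88 siRNA libraries. The groups did not overlap, and Ift88 fell by 1.17 on the log2(TPM + 1) scale (limma, adjusted p = 0.00212). The principal cell identity was only in part visible. Pax8 (81.7 TPM ± 14.7, SD, n = 6, static) and Pax2 (31.4 TPM ± 4.26, SD, n = 6, static), transcription factors of the excurrent ducts, were present, as was Cftr at a few TPM, whereas 12 of the 16 listed caput markers, among them the secreted products Crisp1, Lcn5 and Gpx5, stayed under 1 TPM in every library. Markers of other cell types were low. In the flow experiment, 7 of 8 basal, 5 of 6 clear cell, 6 of 11 fibroblast and smooth muscle and all 4 endothelial markers were under 1 TPM in every library. The exception above 10 TPM on average was Cd68, a lysosomal protein of macrophages and other cells.

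In the mouse genome the type II members Krt7, Krt8, Krt80 and Krt5 lie in the keratin cluster of chromosome 15, as does Krt18, the type I keratin placed outside its own family's cluster. Krt8 (15:101996698 to 102004482, minus strand) and Krt18 (15:102028180 to 102032027, plus strand) are neighbours that point away from each other, with 23697 bases between them (GENCODE M21, GRCm38). Krt19, Krt20 and Krt14 lie on chromosome 11, Vim on 2 and Epcam on 17. Sequences upstream of the start site are shown for Krt8 and Krt18, the partner pair whose levels parted, and for Epcam, which was close to absent. RefSeq promoter windows (GRCm38.p6) were found for 8 of the 10 members, not for Krt19 and Krt80. Each line gives the 5′ to 3′ sequence of the gene's strand, stopped where a GENCODE exon of the gene begins. Capitals mark the E-box CAGGTG on either strand (CACCTG on the other), the letters that ZEB and SNAI repressors of epithelial genes are known to bind.
Krt18, chr15:102027966-102028179, plus strand: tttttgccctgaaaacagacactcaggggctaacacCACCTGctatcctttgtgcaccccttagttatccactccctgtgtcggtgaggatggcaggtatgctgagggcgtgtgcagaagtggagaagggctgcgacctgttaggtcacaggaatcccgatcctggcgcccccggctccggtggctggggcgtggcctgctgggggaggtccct
Krt8, chr15:102004483-102004592, minus strand: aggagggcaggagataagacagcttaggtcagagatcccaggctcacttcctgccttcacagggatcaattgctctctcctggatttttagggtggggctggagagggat
Epcam, chr17:87635729-87635978, plus strand: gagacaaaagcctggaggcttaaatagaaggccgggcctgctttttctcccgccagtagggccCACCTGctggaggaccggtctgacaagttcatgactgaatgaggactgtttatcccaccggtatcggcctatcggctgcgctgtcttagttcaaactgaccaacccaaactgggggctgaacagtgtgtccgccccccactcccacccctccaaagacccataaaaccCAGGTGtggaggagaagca
Counted over the whole 250 bases before the RefSeq start, the E-box occurs once upstream of Krt18, Krt7, Krt5 and Krt8 (in Krt8 outside the printed stretch). It occurs 2 times upstream of Epcam and not upstream of Krt20, Krt14 or Vim. The Vim window begins inside a GENCODE exon of the gene. The E-box occurs in 17.2% of all 32851 such windows. The Krt18 window holds 12 CG dinucleotides and the Krt8 window 3, against a median of 6. A match is only a match of letters.

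In order of level, Vim stood far above all other members. It ranged from 1399 to 2309 TPM in the flow experiment, among the 121 most abundant genes of every library, and was between 652 and 862 TPM after siRNA. Krt18 and Krt80 followed, then Krt19, except in flow replicate 2, where Krt19 (26.0 TPM) lay just above Krt80 (25.5 TPM). The remaining 6 members, Krt7, Krt8, Krt20, Krt5, Krt14 and Epcam, were below 1 TPM on average in both tables, so only 4 members passed the filter of 1 TPM used for the tests. Vim was 9.02 to 15.4 times the sum of all 53 keratin genes in the libraries of the flow experiment and 2.73 to 3.90 times that sum in the siRNA experiment.

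**Figure D1:**
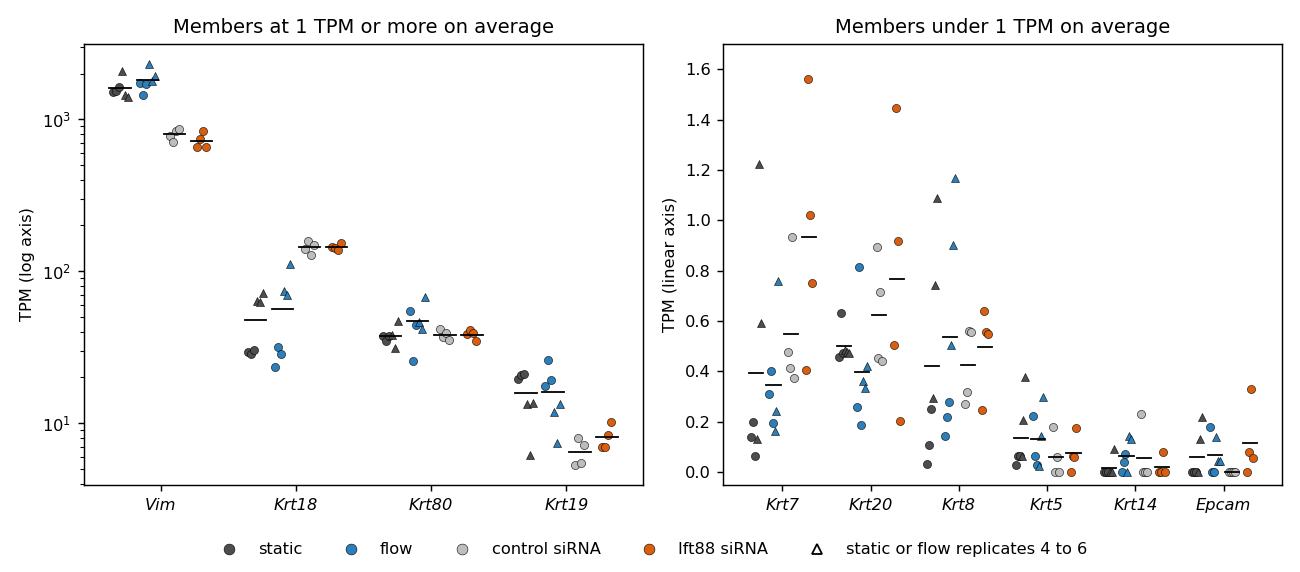
TPM of each member in each library, on a log axis (left, the 4 members at 1 TPM or more on average) and on a linear axis (right, the 6 others). Points are libraries coloured by group, triangles are static or flow replicates 4 to 6, and bars are group means; Krt18 separates by replicate set and not by flow, and the members on the right stay at or below 1.56 TPM.

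Krt8, the type II partner of keratin 18, was close to absent. In static replicates 1 to 6 it was at 0.0345, 0.109, 0.250, 0.294, 0.743 and 1.09 TPM, and in flow replicates 1 to 6 at 0.145, 0.219, 0.277, 0.505, 0.901 and 1.17 TPM. In the siRNA experiment it lay between 0.248 and 0.639 TPM. Krt8 therefore amounted to 0.117% to 1.52% of the Krt18 level in the flow experiment, and to 0.171% to 0.452% after siRNA. The gene shares sequence with a processed pseudogene: 32.3% of the 31-base words of its transcripts, the length the authors' aligner uses by default, also occur in other genes, mostly Krt8-ps, against 11.4% for Krt18, 0.60% for Krt80, 0.52% for Krt19 and 0.40% for Vim (GENCODE M21). How reads were split between Krt8 and its pseudogene was not tested, and the words found in no other gene make up the larger part.

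Krt80, a type II keratin of many epithelia, was the only type II keratin above 1 TPM on average. It made up 91.7% to 99.5% of all type II keratin TPM in the flow experiment and 93.1% to 97.6% in the siRNA experiment. In static replicates 1 to 6 it was at 37.2, 34.9, 37.3, 37.8, 31.4 and 46.7 TPM. Among the type I keratins, Krt18, Krt19 and Krt10, a keratin best known from upper epidermal layers and no member here, made up 97.0% to 99.7% of the summed TPM in every library. Of the 45 other keratin genes, Krt10 was the only one above 1 TPM on average, and 43 stayed under 1 TPM in every library of the flow experiment. Krt10 was at 18.8 TPM ± 2.83 (SD, n = 6) in static cells and 40.3 TPM ± 3.88 (SD, n = 4) with control siRNA.

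Type I keratin mRNA exceeded type II keratin mRNA in every library. The ratio of the sums was 2.15 ± 0.274 (SD, n = 6) in static cells, 2.00 ± 0.615 (SD, n = 6) under flow, 4.90 ± 0.749 (SD, n = 4) with control siRNA and 4.69 ± 0.628 (SD, n = 4) with Ift88 siRNA. Within the flow experiment the ratio ran from 1.09 in flow replicate 1 to 2.80 in flow replicate 2, with Krt80 at 54.4 TPM in the former and 25.5 TPM in the latter.

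**Figure D2:**
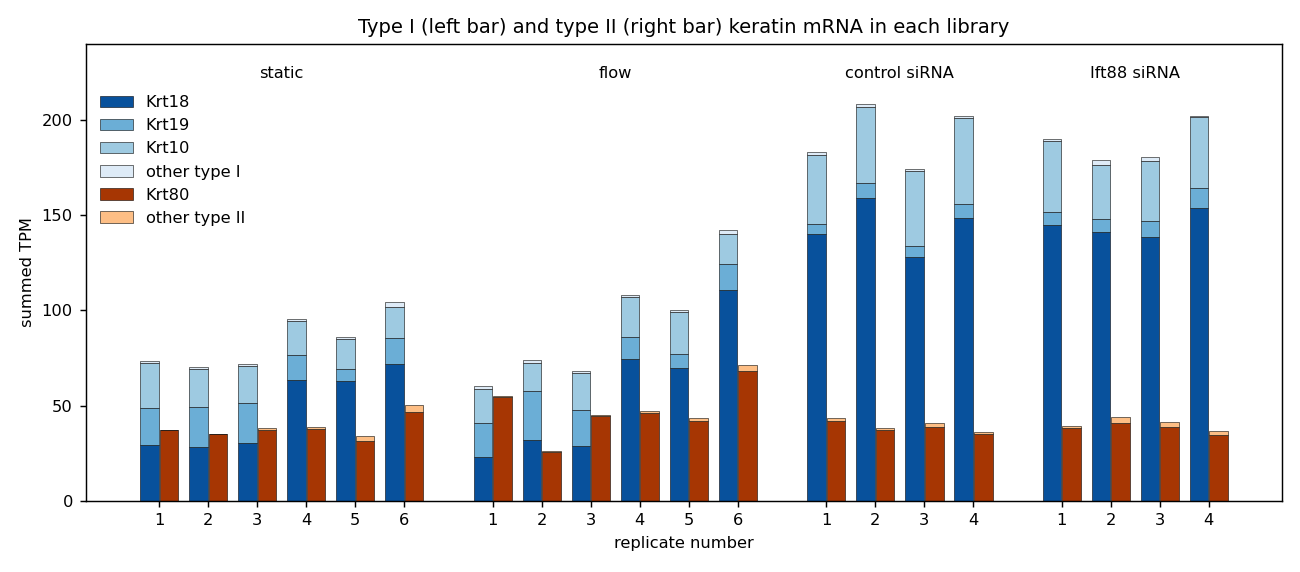
Summed TPM of type I keratin genes (left bar of each library, split into Krt18, Krt19, Krt10 and the rest) and of type II keratin genes (right bar, split into Krt80 and the rest), by group and replicate number. The left bar is the taller one in every library, and Krt80 fills nearly all of each right bar.

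The other low members were as follows. Krt7, a duct keratin, ranged from 0.0652 to 1.22 TPM in the flow experiment and was between 0.373 and 1.56 TPM after siRNA. Krt20, a keratin of intestinal and urothelial lining cells, ranged from 0.188 to 0.816 TPM and from 0.203 to 1.44 TPM. The ranges of Krt7, Krt8 and Krt20 overlapped, so these 3 have no order among themselves. Among the basal cell keratins, Krt5 was at no more than 0.377 TPM in any library, a range that overlaps those of Krt7, Krt8 and Krt20, and Krt14 was listed at 0 in 7 of 12 libraries of the flow experiment and 6 of 8 of the siRNA experiment. Epcam was listed at 0 in 6 of 12 and 5 of 8 libraries, all 4 control siRNA libraries among them, and its highest value was 0.333 TPM in Ift88 siRNA replicate 3. Values this low rest on few reads, and their counting error is unknown.

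The first comparison asks whether shear stress changed these genes. None of the 4 members that passed the filter was called at an adjusted p-value under 0.05 with a change of more than 1.5-fold, where 12 of 11388 genes, or 0.105%, were called, all 12 of them higher under flow. All 4 means were higher under flow. Vim was at 1399 TPM at the lowest, 1517 at the median and 2065 at the highest in static cells, and at 1437, 1765 and 2309 TPM under flow. The ranges overlapped, as for all 4 members, where 0.544% of genes had groups without overlap. The change was 0.19 ± 0.11 (SE) on the log2(TPM + 1) scale, with a 95% interval of 0.961-fold to 1.35-fold (limma, adjusted p = 0.999). Krt80 was at 31.4, 37.3 and 46.7 TPM (lowest, median, highest) in static cells and at 25.5, 45.4 and 68.1 TPM under flow. Flow held both the lowest and the highest library, and the change was 0.26 ± 0.18 (SE), with an interval of 0.920-fold to 1.56-fold (adjusted p = 0.999).

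Krt18 was at 28.4, 46.6 and 71.8 TPM in static cells and at 23.3, 50.8 and 110.8 TPM under flow. Its difference of 0.12 ± 0.38 (SE) had the widest interval of the 4, 0.621-fold to 1.92-fold (limma, adjusted p = 0.999), and without flow replicate 6, the library with the contradictory label, the sign turned to -0.11. Krt19 was at 6.21, 16.5 and 21.02 TPM in static cells and at 7.35, 15.6 and 26.0 TPM under flow, a difference of 0.013 ± 0.30 (SE) with an interval of 0.646-fold to 1.57-fold (adjusted p = 0.999). In this fit, which takes no account of the replicate numbers, the intervals of Krt80, Krt18 and Krt19 still held a change of 1.5-fold. That of Vim did not.

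Same-numbered flow and static libraries deviated together, and comparing them within each number narrowed these errors. Under flow, Vim was higher in 5 of 6 numbers, from 0.069 to 0.46 on the log2(TPM + 1) scale, and lower by 0.089 in number 2. Krt80 was likewise higher in 5 of 6 numbers, from 0.25 to 0.54, and lower by 0.44 in number 2. Krt18 was higher in 4 of 6 and Krt19 in 2 of 6. With the numbers entered as a block in the model, the interval of Vim was 0.045 to 0.33 on the log2(TPM + 1) scale. That of Krt80 was 0.012 to 0.51. Neither holds 0, but in that fit 1266 of 11388 genes had an unadjusted p under 0.05 (limma with the block). The SE of Krt18 shrank to 0.10. Krt80 ran from 1.01-fold to 1.42-fold, Krt18 from 0.935-fold to 1.27-fold and Krt19 from 0.889-fold to 1.145-fold. With the block, none of the 4 intervals held a change of 1.5-fold. After adjustment over all genes none of the 4 passed (limma with the block, adjusted p = 0.330 for Vim, 0.432 for Krt80, 0.677 for Krt18 and 0.969 for Krt19), where 68 genes, or 0.597%, were called. Flow replicate 2 weighed most on Krt80: without it the change was 0.42 ± 0.13 (SE) and the adjusted p 0.147. With flow replicate 6 counted as static instead, the change of Krt80 was 0.021 and that of Krt18 -0.30, both uncalled.

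**Figure D3:**
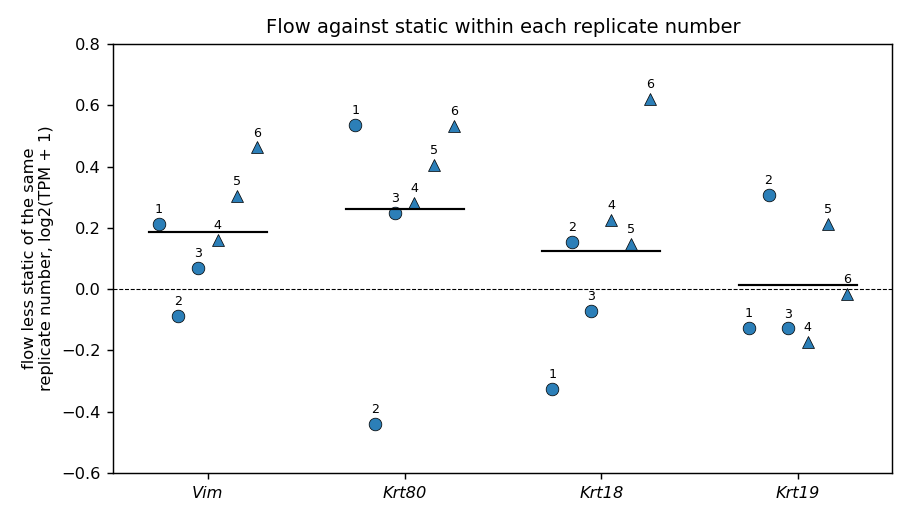
Flow less static on the log2(TPM + 1) scale within each replicate number, for the 4 members that passed the filter; points carry the replicate number, triangles are numbers 4 to 6 and bars are means over the 6 numbers. Number 2 is the only point below 0 for Vim (-0.089) and Krt80 (-0.44).

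The low members were compared in a fit with no filter, which called 2 of 18564 genes, or 0.0108%, and no member (all adjusted p = 1.00 at 3 digits). Krt8 was higher under flow in 6 of 6 replicate numbers, by 0.031 to 0.22 on the log2(TPM + 1) scale, at levels at or under 1.17 TPM. Of the other low members, Krt7 was higher in 5 of 6 numbers, and Krt20 and Krt5 were lower in 5 of 6. Krt14 was higher in 4 and lower in 0, and Epcam was higher in 2 and lower in 2. How many of all genes kept the same sign in every number was not counted. With the block and no filter, an alternative chosen after seeing the data, the adjusted p of Krt8 was 0.567. That fit called 0 genes, although 1454 had an unadjusted p under 0.05, and the fit with neither block nor filter called 2.

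The second comparison asks whether silencing Ift88 changed the same genes. None of the 4 members that passed was called, where 25 of 11209 genes, or 0.223%, passed, 17 of them upward and 8 downward. Krt18 was at 140.0, 158.9, 128.3 and 148.6 TPM in control siRNA replicates 1 to 4 and at 144.9, 141.2, 138.8 and 153.9 TPM with Ift88 siRNA. The Ift88 siRNA libraries all lay inside the range of the controls, and the difference was 0.011 ± 0.070 (SE) on the log2(TPM + 1) scale, with an interval of 0.906-fold to 1.12-fold (limma, adjusted p = 0.962). Krt80 was at 41.9, 37.2, 39.0 and 35.0 TPM in the controls and at 38.3, 41.0, 39.0 and 34.5 TPM with Ift88 siRNA, an interval of 0.885-fold to 1.13-fold (adjusted p = 0.993). For these 2 keratins the interval left no room for a change of 1.5-fold.

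Krt19 was at 5.32, 7.98, 5.43 and 7.15 TPM in the controls and at 7.002, 6.93, 8.36 and 10.2 TPM with Ift88 siRNA. The groups overlapped, and the difference was 0.29 ± 0.15 (SE), with an interval of 0.974-fold to 1.53-fold (limma, adjusted p = 0.418). Vim was at 778, 712, 839 and 862 TPM in the controls and at 654, 747, 832 and 652 TPM with Ift88 siRNA. The groups overlapped as well, at -0.15 ± 0.086 (SE) and an interval of 0.793-fold to 1.02-fold (adjusted p = 0.459). Groups without overlap were found for 8.58% of the genes tested, none of these 4 among them. With no filter, the fit called 6 of 19195 genes, or 0.0313%, and none of the 6 low members. Krt7 was at 0.476, 0.415, 0.935 and 0.373 TPM in the controls and at 0.407, 1.56, 1.02 and 0.750 TPM with Ift88 siRNA (limma with no filter, adjusted p = 0.610). Epcam, listed at 0 in all 4 controls, was listed at 0, 0.0804, 0.333 and 0.0568 TPM in Ift88 siRNA replicates 1 to 4 (adjusted p = 0.557).

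Within the static cells, replicates 1 to 3 and 4 to 6 differed in Krt18 and Krt19 more than flow and static did. This split is known from earlier results on these libraries and not from the labels, so the values are a description with no test, and whether it marks a culture passage, a day or a sequencing run cannot be told apart here. Krt18 was at 29.4, 28.4 and 30.2 TPM in static replicates 1 to 3 and at 63.4, 63.0 and 71.8 TPM in replicates 4 to 6. The sets stood clear of each other, the later one 1.14 higher on the log2(TPM + 1) scale. The flow libraries gave 23.3, 31.7 and 28.7 TPM in replicates 1 to 3 and 74.2, 69.9 and 110.8 TPM in replicates 4 to 6, a difference of 1.55. Krt19 ran the other way, with 19.4, 20.8 and 21.02 TPM in static replicates 1 to 3 and 13.5, 6.21 and 13.6 TPM in replicates 4 to 6, 0.89 lower. Under flow it was at 17.7, 26.0 and 19.2 TPM and then at 11.8, 7.35 and 13.5 TPM, 0.90 lower. Krt18 and Krt19 thus separated the sets without overlap in both conditions, in opposite directions. The sets of Krt20, also a type I keratin but under the filter, overlapped in both conditions.

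Non-overlapping sets were common. In static cells they were found for 35.8% of the 11388 genes and for 2 of the 4 members tested, and in flow cells for 20.2% of genes and 3 of the 4 members, Vim being the added one. The same direction without overlap in both conditions was found for 13.2% of genes and for Krt18 and Krt19. In size the 2 keratins were further out: the difference of Krt18, in either direction, was larger than that of 99.5% of genes in static cells and 99.6% in flow cells, and that of Krt19 larger than 98.7% and 98.1%. The median gene differed by 0.14 in static and 0.085 in flow cells. With median-of-ratios scaling, which takes this shift out, Krt18 stood at 0.98 and 1.46 and Krt19 at -1.05 and -0.995 in static and flow cells.

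Krt80 and Vim differed less. Krt80 was 0.064 higher in static replicates 4 to 6, with overlap, and Vim 0.054 higher, with overlap. Both turned negative with median-of-ratios scaling, at -0.10 and -0.11. In flow cells Krt80 was 0.35 and Vim 0.30 higher in replicates 4 to 6. Krt8 was higher in replicates 4 to 6 without overlap in both conditions, at a mean of 0.709 against 0.131 TPM in static and 0.858 against 0.213 TPM in flow cells, at levels under the filter. In static cells the order of Krt18 and Krt80 differed between the sets: replicates 1 to 3 held 0.791 to 0.815 Krt18 per Krt80, and replicates 4 to 6 held 1.54 to 2.01. In flow cells replicates 1 to 3 held 0.428 to 1.25, with Krt18 above Krt80 in flow replicate 2, and replicates 4 to 6 held 1.61 to 1.67. In the siRNA experiment that ratio was 3.29 to 4.46.

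**Figure D4:**
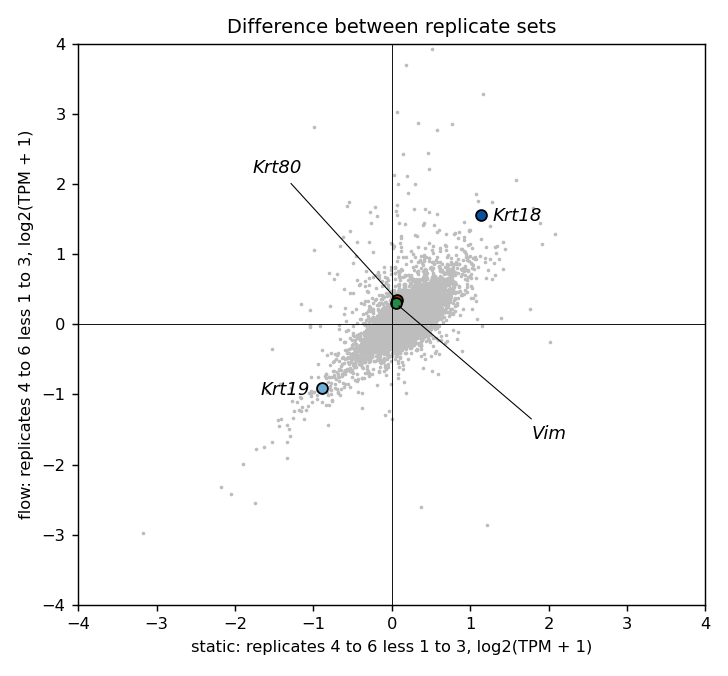
Mean of replicates 4 to 6 less mean of replicates 1 to 3 on the log2(TPM + 1) scale, in static (horizontal axis) and flow libraries (vertical axis); each grey point is 1 of 11388 genes. Krt18 lies at 1.14 and 1.55 and Krt19 at -0.89 and -0.90, while Krt80 lies at 0.064 and 0.35 and Vim at 0.054 and 0.30.

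Markers of other cell types were low but in part higher in replicates 4 to 6, and their part in the split was not tested. Summed over the whole list, the 11 fibroblast and smooth muscle markers were at 5.38 to 5.92 TPM in static replicates 1 to 3 and 7.43 to 11.6 TPM in replicates 4 to 6, the 8 basal markers at 7.46 to 10.1 and 11.1 to 13.8 TPM, and the 6 blood and immune markers at 13.8 to 15.7 and 14.6 to 65.2 TPM, nearly all of it Cd68. Of the fibroblast and smooth muscle list, 5 of 11 markers reached 1 TPM in some library of the flow experiment, and 1 of 11, Thy1, was listed at 0 in all of them. The 3 tested had a median 0.46 higher in static and 0.72 higher in flow replicates 4 to 6 on the log2(TPM + 1) scale. Of the blood and immune list, 2 of 6, Adgre1 and Cd3e, were listed at 0 in every library of this experiment. No basal marker was at 0 in every library of it, and Trp63, the defining factor of basal cells, did not exceed 0.0456 TPM there. The 16 caput markers summed to 97.4 to 117.6 and 121.3 to 157.5 TPM in the static sets. In flow replicates 1 to 3 and 4 to 6 they summed to 107.2 to 125.2 and 107.1 to 162.7 TPM, with overlap. The fibroblast and smooth muscle sums (3.83 to 5.89 and 5.43 to 11.5 TPM) overlapped in flow cells too. So did the blood and immune sums (10.6 to 16.4 and 15.4 to 40.8 TPM), but not the basal sums (9.10 to 10.2 and 10.9 to 12.9 TPM). The number of genes above 0 was 15543 to 15709 in static replicates 1 to 3 and 15669 to 16562 in replicates 4 to 6.

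Genes of both the epithelial and the mesenchymal list were present beside the keratins. Summed, the epithelial list was at 49.2 to 59.9 TPM in static replicates 1 to 3 and 69.6 to 95.95 TPM in replicates 4 to 6. The mesenchymal list was at 1834 to 1938 and 2277 to 3229 TPM. In flow cells the sums of both lists were likewise higher in replicates 4 to 6, without overlap. Of the 15 genes of the epithelial list only 4 passed the filter in the flow experiment. Cdh1, the adhesion protein E-cadherin, was at 0.933 TPM ± 0.579 (SD, n = 6) in static cells and Cldn7, a claudin that binds EpCAM, at 0.295 TPM ± 0.157 (SD, n = 6). The 2 genes of this list above 10 TPM on average in the flow experiment were Tjp1, the tight junction protein ZO-1, at 24.1 TPM ± 4.79 (SD, n = 6) in static cells, and Cldn4, another claudin, at 30.3 TPM ± 14.3 (SD, n = 6). With control siRNA they were at 7.97 TPM ± 0.297 and 2895 TPM ± 205 (SD, n = 4). Without the block and with both thresholds, no gene of any list was called. Cldn4 was called in the flow comparison with the block, where it was 0.83 ± 0.15 (SE) higher under flow (limma with the block, adjusted p = 0.0426; without it 0.999). Of the 12 mesenchymal genes 11 passed. Cdh2, N-cadherin, was at 168 TPM ± 21.2 (SD, n = 6), and Fn1, Sparc, S100a4, Zeb1, Zeb2 and Twist1 were above 10 TPM on average in both experiments, Twist2 in the flow experiment and Snai2 in the siRNA experiment. None of the mesenchymal genes was called under flow or with Ift88 siRNA, with medians of 0.10 and -0.13 on the log2(TPM + 1) scale beside -0.026 and 0.017 over all genes.

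The genes that hold and modify keratin filaments were partly present. Of 15 anchors, 8 passed the filter in the flow experiment, and Jup, Pkp2, Pkp4, Plec, Dst and Ppl, which link filaments to desmosomes and to the cell base, were above 10 TPM on average, while 7 stayed under 1 TPM in every library. All 6 partners and modifiers passed, and Dnajb6, a chaperone of keratin 18, the ubiquitin ligase Stub1, Fam83h, Tchp and Sfn were above 10 TPM on average. Among the 8 partners and regulators of EpCAM, Cd9, Cd44 and Adam17 were above 10 TPM on average. Cd44, a hyaluronan receptor, was at 155 to 168 TPM with control siRNA and at 125 to 136 TPM with Ift88 siRNA, without overlap. It fell by 0.33 on the log2(TPM + 1) scale (limma, adjusted p = 0.0236), which is less than 1.5-fold. Of 14 other intermediate filament genes the lamins Lmna, Lmnb1 and Lmnb2 and nestin, Nes, were above 10 TPM, with Nes at 127 TPM ± 25.0 (SD, n = 6) in static cells. No gene of these 4 lists met both thresholds in either comparison.

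Over the 20 libraries, with log2(TPM + 1) centred within each table, Krt18 was most like Cd151, a membrane tetraspanin (Pearson r = 0.94), and Gng10, a G protein gamma subunit (r = 0.92), among 10890 genes at 1 TPM or more in both tables. Krt19 was most like Mif, a cytokine (r = 0.89), and Eno1, a glycolytic enolase (r = 0.87), both genes with near-identical copies in the genome, which makes their values uncertain. Vim was most like Rtn4, a protein of the endoplasmic reticulum (r = 0.84), and Pptc7, a mitochondrial phosphatase (r = 0.84). Krt7 and Krt8 were under the filter and were not compared. Between Krt18 and Krt19 r was -0.62. These coefficients describe libraries that share replicate sets, and the separation of replicates 1 to 3 from 4 to 6 enters each of them.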

How the data were processed

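RNA-seq of DC2 cells gave 20 libraries, grouped by their labels. According to the study's methods and the submitters' processing notes, the authors trimmed the reads (Trimmomatic in the methods, fastp 0.20.0 in the notes), checked them with FastQC 0.11.8 and MultiQC 1.8, quantified transcripts of the Ensembl mouse annotation with kallisto 0.46.2 and summarised them to genes with tximport. The authors deposited TPM, 1 table per experiment, summing to 1000000 in each library. These hold no counts and not the scaling between libraries that the methods name.

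From the deposited TPM, log2(TPM + 1) was compared with limma 3.58.1 in R 4.3.3 (trend). Genes averaging 1 TPM or more entered, p-values were adjusted after Benjamini and Hochberg, and genes were called at an adjusted p under 0.05 and over 1.5-fold. Changes of low genes are understated on this scale. The procedure was tested on simulated data. Same-numbered flow and static libraries deviated together (correlations over genes 0.294, 0.463, 0.425, 0.468, 0.662 and 0.600), and 10 of 12 correlated best with their own number. This was read as pairing, although the difference between replicates 1 to 3 and 4 to 6 also enters these correlations. The fit without the block is given first. The members and the related lists were chosen with earlier results of these data known. All 10 members are named, with the 2 genes most like Krt7, Krt8, Krt18, Krt19 and Vim where these passed the filter, and genes of the related lists that were called or reached 10 TPM on average in a table, and Cd44 is described as the list gene past the adjusted p alone. Genes outside this rule (Cdh1, Cldn7, the markers of the caput and of other cell types) were named after their values were seen. The values of some listed genes are not reported here. Alternatives were a pseudocount of 0.1, no filter, median-of-ratios scaling, library weights, the block, each library left out, no fold threshold, flow replicate 6 as static, and each set of replicates alone. Positions and shared 31-base words are from GENCODE M21 on GRCm38, an older build than the authors' annotation. Levels, lists and figures were made in Python 3.11.15 (pandas 2.3.3, numpy 2.4.6, matplotlib 3.10.9).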

Additional observations from a re-analysis of the deposited data

Results flagged for a closer look

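Of 39 combinations of member and group in which the values differed between libraries, 6 had a lowest or highest library set far from the others by Dixon's criterion, which chance alone meets in about 1 of 20 groups. That rate is for independent, normally spread values, which these TPM need not be. The 39 also include groups of Krt14, to which it does not apply. It is thus only a rough guide for 3 of the 6, those of Vim and Krt20. Vim stood at 2065 TPM in static replicate 4, where the other static libraries lay between 1399 and 1626 TPM. Krt20 stood at 0.631 TPM in static replicate 2 against 0.456 to 0.487 TPM in the others, and at 0.816 TPM in flow replicate 2 against 0.188 to 0.422 TPM. For Krt14 the criterion is met by construction, since all other libraries of the group are at 0, and the rate of chance does not apply: it was listed above 0 in only 1 library in each of 3 groups, at 0.0913 TPM in static replicate 6, 0.232 TPM in control siRNA replicate 1 and 0.0811 TPM in Ift88 siRNA replicate 3.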

How the results depend on the processing

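No member was called in any fit run. Over these fits the adjusted p (limma) ran from 0.087 (Krt80, library weights) to 1.00 under flow and from 0.264 (Vim) to 0.999 with Ift88 siRNA. Signs turned for uncalled members. Under flow, Krt18 turned to -0.30 with flow replicate 6 counted as static and to -0.081 within replicates 1 to 3, and ran from -0.11 to 0.33 with each library left out. Krt19 turned to -0.22 with library weights and ran from -0.21 to 0.20. With Ift88 siRNA, Krt18 turned to -0.012 with median-of-ratios scaling and -0.028 with library weights and ran from -0.043 to 0.060, and Krt80 turned to 0.039 with library weights and ran from -0.043 to 0.044. The flow change was 0.064 for Vim, 0.12 for Krt80 and 0.017 for Krt19 within replicates 1 to 3, and 0.31, 0.41, 0.0080 and, for Krt18, 0.33 within replicates 4 to 6.

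Counts over all genes moved more. Under flow, 12 genes were called, against 2 with no filter, 28 with median-of-ratios scaling, 68 with the replicate block, 86 with library weights (75 higher, 11 lower), 5 within replicates 1 to 3, 56 within replicates 4 to 6, and 0 with flow replicate 6 counted as static (limma, 181 at an unadjusted p under 0.05). Leaving out libraries gave 5 (without flow replicate 4) to 87 (without flow replicate 2), and 6 without static replicate 1, 2 or 4. With Ift88 siRNA, 25 were called, against 6 with no filter, 48 with library weights, 71 without the fold threshold and 44 with the replicate block. There the same-numbered libraries correlated at 0.0464, 0.00276, 0.259 and 0.176, and 4 of the 8 correlated best with their own number, so they were taken to share only a number. Leaving out libraries gave 11 to 23, with 11 without control siRNA replicate 1 or Ift88 siRNA replicate 1. The causes were not tested. Between static replicates 4 to 6 and 1 to 3, the difference ran from 1.08 to 1.17 for Krt18 and from -1.07 to -0.56 for Krt19 with each static library left out. Members under 1 TPM rest on few reads, and the depth of each library is unknown.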
